A study of Homo sapiens with 50 samples.

Results

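The hairpins described here are the 54 of 3443 in the screen whose single target name begins with PIK3, the subunits of phosphoinositide 3-kinase (PI3 kinase). They were picked by target name and belong to 7 genes. PIK3CA (10 hairpins), PIK3CB (12), PIK3CD (5) and PIK3CG (5) encode the 4 class I catalytic subunits p110 alpha, beta, delta and gamma. PIK3R1 (10), PIK3R2 (7) and PIK3R3 (5) encode 3 regulatory subunits, p85 alpha, p85 beta and p55 gamma. No hairpin naming several genes named a PIK3 gene, and all 7 names are current symbols in the RefSeq table.

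The study infected IMR90 cells, normal human lung fibroblasts with a limited number of divisions, with lentiviruses that each carry a short hairpin RNA (shRNA). Most hairpins name 1 gene, others name several, and 1 is a non-targeting control. Every plate received such viruses at a multiplicity of infection of 0.3 and was grown at 3% oxygen without further treatment. DNA was taken at population doubling (PD) 40, the proliferating reference, then at 45, 50 and 55 doublings, and finally at PD60, when the cells were senescent. Each time has 10 plates, each infected with a different pair of the 5 initial hairpin pools, but the table holds 1 column per time, so no value below carries a spread between cultures. A hairpin's tags are counts of PCR product and stand for its share of the DNA, not for a number of cells. How far each hairpin lowered its target was not analysed here.

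Class I PI3 kinases phosphorylate a membrane lipid to make PIP3 when growth factor receptors or G protein-coupled receptors are engaged. PIP3 recruits the kinase AKT, and mTOR and the S6 kinases act downstream in the control of cell growth. The regulatory subunits named above hold the alpha, beta and delta catalytic subunits in the cytosol, stabilise and restrain them, and bring them to phosphorylated receptors through SH2 domains. The alpha and beta catalytic subunits are found in most cell types, fibroblasts among them, whereas delta and gamma are best known from white blood cells.

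Column totals ran from 8270745 tags (PD60) to 11505688 (PD55). Levels are given as CPM, tags scaled to a common column total. A change is log2(CPM + 1) at a later time minus its PD40 value, computed where either column had 10 tags or more, and a ratio is of CPM without that pseudocount of 1. Higher and lower mean over 2-fold on the log2 scale. Intervals are exact 95% Poisson intervals of the ratio and cover counting error only, since PCR products were counted without molecular identifiers. Every direction is relative to the column total, in which a few hairpins came to hold most tags.

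Of 54 PI3 kinase hairpins, 50 were lower at PD60 than at PD40 (library 95.3%) and 4 were not. Together the 54 held 3.10% of all tags at PD40 (95% Wilson interval 3.09 to 3.11). Their share was 2.17% at PD45, 1.69% at PD50 and 0.782% at PD55, and 2.15% at PD60 (2.14 to 2.16). The course of this share depends on the most abundant hairpins. Without the 50 most abundant of the library at each time, it was 3.35%, 2.80%, 1.78%, 3.67% and 3.20%. Of those 50, 2, 1, 2, 0 and 2 were PI3 kinase hairpins, so different members stayed in at different times. At PD55 the PIK3CA hairpins TRCN0000082626 (rank 57) and TRCN0000039607 (rank 80) stayed in, and at PD60 TRCN0000039607 (rank 52). The value at PD55, the only one above PD40, is therefore no gain by the rest of the family. Among all tags, the return at PD60 lay in TRCN0000082626. Without it the others held 3.07%, 1.99%, 1.10%, 0.519% and 0.626% at the 5 times. At PD60 99.1% of the family's tags belonged to 4 hairpins, 2 against PIK3CA and 1 each against PIK3CB and PIK3R1. The same 4 had held 12.2% of the family's tags at PD40. They were picked by their PD60 level, and in the whole library an equal proportion of hairpins, the 255 most abundant at PD60, held 99.0% of tags. The other 50 hairpins had 0 to 360 tags at PD60, 1579 in all.

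At PD45 3 of 54 hairpins were higher than at PD40, against 5.73% of 3420 library hairpins, and 33 were lower, against 63.2%. At PD50 3 were higher (library 4.94%) and 45 lower (library 81.9%). At PD55 1 was higher (library 2.92%) and 50 lower (library 91.7%). At PD60 2 were higher (library 2.28%) and 50 lower (library 95.3%). These shares lie near those of the library at every time.

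The median change of the 54 was -1.46, -3.36, -5.22 and -6.81 from PD45 to PD60. Over all hairpins it was -1.63, -3.46, -4.93 and -5.86. PI3 kinase hairpins also started higher, with a median of 2529.5 tags at PD40 against 1019 in the library, and a hairpin that starts higher can show a larger fold before it reaches 0 tags. The number of the 54 at 0 tags was 0 at PD45 (library 1.42%), 1 at PD50 (library 9.47%), 3 at PD55 (library 18.4%), then 10 at PD60 (library 44.1%). These library shares are not matched for the start. In the quintile of highest PD40 abundance, 1 of 26 PI3 kinase hairpins and 9 of 663 others were at 0 at PD60. The hairpins at 0 at PD60 were 4 against PIK3CA, 3 against PIK3R1, 2 against PIK3R3 and 1 against PIK3CG.

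With TMM scaling, which takes the bulk of hairpins as unchanged, the balance of directions was another one. At PD60 it gave 18.5% of the 54 higher and 61.1% lower, with a median of -1.83, and 18.8% and 64.4% of the library, with a median of -1.84. At PD45 the split of the 54 was 16.7% higher and 31.5% lower, at PD50 18.5% and 44.4%, and at PD55 25.9% and 50.0%. The median of all hairpins shifted to -0.43 at PD45, -0.79 at PD50 and -1.26 at PD55 under this scaling. The TMM factor was 8.94 for PD40 and 0.0777 for PD60, which raises every PD60 change. As 64.4% of the library was still lower, the bulk was not unchanged, and these values depend on that premise. The hairpins TRCN0000082626, TRCN0000039979, TRCN0000039607 and TRCN0000033284, described below, then had PD60 changes of 12.25, 9.10, 7.12 and 6.76. Of hairpins lower by column totals 6 became higher, among them PIK3R3 TRCN0000033290 (1.41), which had few tags at PD60.

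Most hairpins of the family, like most of the library, had their highest level at the start. CPM was highest at PD40 for 45 of 54 hairpins (83.3%, library 80.4%), at PD45 for 7 (13.0%, library 11.97%) and at PD60 for 2 (3.70%, library 1.95%), and for 0 at PD50 or PD55. For 42 of 54 (77.8%, library 68.9%), CPM was lower at each of the 4 steps, or already at 0. From PD40 to PD45 45 hairpins had a lower CPM (library 82.1%), from PD45 to PD50 52 (library 89.1%) and from PD50 to PD55 53 (library 84.5%). In the last step 45 were lower (library 73.1%), 6 had a higher CPM and 3 were at 0 at both times. A hairpin already at 0 cannot go lower, and 16.3% of the library was at 0 at both PD55 and PD60 (5.56% of the 54).

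The alpha catalytic subunit gave both the strongest gain and some of the deepest losses. PIK3CA TRCN0000082626 had 3022, 15142, 49572, 30269 and 126196 tags at the 5 times. It stood at rank 683 of the library at PD40 and at rank 20 at PD60, where it held 1.53% of all tags. The ratio to PD40 was 4.92 at PD45 (4.73 to 5.12), 16.7 at PD50 (16.1 to 17.3), 7.51 at PD55 (7.23 to 7.80), then 43.6 at PD60 (42.0 to 45.2). Its course was not steady, since CPM went from 5846 at PD50 to 2631 at PD55 before reaching 15258 at PD60.

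A second PIK3CA hairpin, TRCN0000039607, expanded early and then gave ground until PD55 by column totals. It had 12477 tags at PD40 and then 36722, 28148, 18615 and 14553. Relative to the column total the last step was a small gain, from 1618 CPM at PD55 to 1760 at PD60. The ratio was 2.89 at PD45 (2.83 to 2.95) and 1.22 at PD60 (1.19 to 1.25), so that at the end it was within 2-fold of its start. Among hairpins in the same quintile of PD40 abundance it stood at percentile 95.3 at PD45 and 91.6 at PD60.

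The other 8 PIK3CA hairpins were lower at PD60 (library 95.3%), with changes from -4.70 to -10.03 and 0 to 206 tags left. TRCN0000010406, the most abundant member at PD40, had 23123, 6608, 1234, 164 and 13 tags at the 5 times. It was already 3.56-fold lower at PD45 (3.47 to 3.66), 18.4-fold lower at PD50 and 188-fold lower at PD55. TRCN0000039606 and TRCN0000082627 started among the rarest members, with 288 and 216 tags, and were at 4 and 8 tags at PD45. The mean over the 10 PIK3CA hairpins was -5.22 at PD60 with an SD of 4.76 over hairpins, the widest spread of the 7 genes by column totals, against an SD of 2.23 over all hairpins. Without TRCN0000082626 the mean was -6.41.

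Of the 12 hairpins against PIK3CB, the beta catalytic subunit, 1 was higher at PD60 (library 2.28%) and 11 were lower (library 95.3%). TRCN0000039979 had 5396, 10692, 12531, 10763 and 25070 tags. Its ratio was 1.95 at PD45 (1.88 to 2.01), 2.36 at PD50 (2.29 to 2.44), 1.495 at PD55 (1.45 to 1.55), then 4.85 at PD60 (4.71 to 4.99). It was above its PD40 level at all 4 later times, and over 2-fold above it at PD50 and PD60.

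The other PIK3CB hairpins had changes from -4.25 to -10.49 and 1 to 360 tags at PD60. TRCN0000018340, the most abundant of them at PD40, had 22191, 6088, 2120, 977 and 49 tags, which was 434-fold lower at PD60 (328 to 587). TRCN0000009860 had 18444, 3297, 457, 76 and 4 tags, 5.70-fold lower at PD45 and 39.7-fold lower at PD50. The ratio of CPM to that of the time before lay between 0.0732 and 0.176 at each of the 4 steps, and its PD60 change was the lowest of its abundance quintile. No PIK3CB hairpin was at 0 at PD60. The mean was -6.23 (SD 3.17, 12 hairpins) and the median -6.83.

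Hairpins against the delta and gamma subunits were all lower at PD60, 5 of 5 for PIK3CD and 5 of 5 for PIK3CG, as were 95.3% of library hairpins. PIK3CD TRCN0000033274 was the exception at the first step. It had 2392, 6346, 2649, 729 and 64 tags, a ratio of 2.61 at PD45 (2.49 to 2.73), 1.13 at PD50 (1.07 to 1.19) and 0.0279 at PD60 (0.0214 to 0.0358). The other 4 PIK3CD hairpins had a lower CPM at PD45 than at PD40. The most abundant of these, TRCN0000033276, had 3861, 2460, 995, 190 and 22 tags. The PIK3CD mean was -6.21 at PD60 (SD 1.06, 5 hairpins).

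For PIK3CG, TRCN0000033282 held 82.2% of the gene's tags at PD45 and 86.5% at PD55. It had 3914, 4195, 2404, 776 and 11 tags, and its largest fold loss was in the last step, from 67.4 to 1.33 CPM. The remaining 4 PIK3CG hairpins had 90 to 380 tags at PD45, and 0 to 2 at PD60. The PIK3CG changes lay between -6.36 and -7.61 at PD60 (mean -7.10, SD 0.46), the narrowest range of the 7 genes by column totals. With 0 to 2 tags left for 4 of these hairpins, their changes are held near a floor by the pseudocount. They then depend largely on the PD40 level, so the narrow range is no measure of like behaviour. From PD40 to PD60 the summed tags went from 11111 to 136 for PIK3CD and from 8872 to 15 for PIK3CG.

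By column totals 0 of 22 regulatory hairpins were higher at any later time, against 5.73% of the library at PD45 and 2.28% at PD60. At PD60 21 of 22 were lower (library 95.3%) and 1 was within 2-fold, while of the 32 catalytic hairpins 2 were higher, 29 lower and 1 within 2-fold. The medians were -6.67 and -6.97. With so few hairpins these counts lie near the library's shares. The difference between the groups was not tested, as hairpins are no replicates of a culture.

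PIK3R1 TRCN0000033284, against p85 alpha, kept its level throughout. It had 11700, 13331, 12165, 16410 and 10606 tags, or 1356, 1518, 1435, 1426 and 1282 CPM. Its ratio to PD40 lay between 0.945 (0.921 to 0.971) at PD60 and 1.12 (1.09 to 1.15) at PD45. Its rank in the library went from 112 at PD40 to 65 at PD60. The other 9 PIK3R1 hairpins had changes from -5.61 to -7.52 and 0 to 21 tags at PD60. At PD60 TRCN0000033284 therefore held 99.4% of the gene's tags, against 46.4% at PD40. The PIK3R1 mean was -5.90 (SD 2.12, 10 hairpins), and -6.54 without it.

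All 7 hairpins against PIK3R2, which encodes p85 beta, were lower at PD50 (library 81.9%), PD55 (library 91.7%) and PD60 (library 95.3%). At PD45 6 of 7 were lower (library 63.2%). The largest early loss in this gene was that of TRCN0000010402, with 8641, 644, 103, 24 and 4 tags. It was 13.7-fold lower at PD45 (12.6 to 14.8) and stood at percentile 0.727 among hairpins of its PD40 quintile. TRCN0000018339, the most abundant at PD40, had 14941, 4599, 2681, 1206 and 204 tags, 70.2-fold lower at PD60 (61.2 to 81.0). TRCN0000039685 had 3048, 1403, 256, 22 and 1 tags, at the end a ratio of 0.000342 (8.66e-06 to 0.00191). The PIK3R2 mean was -7.58 (SD 1.14) at PD60, the lowest of the 7 genes by column totals at that time. With TMM scaling PIK3CG (-2.59) and PIK3R3 (-2.22) lay below PIK3R2 (-1.90), and at PD55 by column totals PIK3R3 (-6.06) lay below it (-5.80). Its hairpins also started high, with a median of 5039 tags.

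All 5 hairpins against PIK3R3, which encodes p55 gamma, were lower at PD50 (library 81.9%), PD55 (library 91.7%) and PD60 (library 95.3%). TRCN0000033290 had 943, 53, 11, 4 and 22 tags, so its CPM went up in the last step, from 0.348 to 2.66, on few tags. TRCN0000033289 had 2667, 1649, 177, 38 and 0 tags, at least 852-fold lower at PD60 with the floor of 3 tags. The PIK3R3 mean was -6.87 (SD 1.48, 5 hairpins).

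In order of the median change at PD60 the genes were PIK3CA (-6.09), PIK3R1 (-6.57), PIK3CB (-6.83), PIK3CD (-6.94), PIK3CG (-7.19), PIK3R3 (-7.56) and PIK3R2 (-7.65). The hairpins of genes next to each other in this order overlap in their changes, and the order is a description. Median tags at PD60 were 4.5 for PIK3R1, 4 for PIK3R2 and 1 each for PIK3CG and PIK3R3. Medians on so few tags depend largely on the PD40 level and the pseudocount. Hairpins to the same gene that were lower at PD60 outnumbered those that kept or raised their level. The counts were 8 to 2 for PIK3CA, 11 to 1 for PIK3CB and 9 to 1 for PIK3R1, and 95.3% of the library was lower.

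Set beside hairpins of the same quintile of PD40 abundance, PI3 kinase hairpins lay somewhat below the middle, least so at PD60. Of the 54, 26 were in the quintile of highest PD40 abundance, 17 in the next, and 5, 4 and 2 in the lower ones. In the highest quintile the median change of the 26 was -0.87, -2.19, -4.52 and -7.17 from PD45 to PD60. For the 663 other hairpins of that quintile it was -0.40, -1.46, -3.57 and -6.17. The 26 also started higher within it, with a median of 6504 tags at PD40 against 5248. There 2 of the 26 were higher at PD60, and 41 of the 663. In the next quintile the medians at PD60 were -7.10 for 17 members and -7.19 for 671 others. With 5 members it was -6.62 for members and others alike, and with 4 members -5.75 for both. In the lowest it was -4.90 for 2 members and -4.42 for the others.

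Over all quintiles 36 of 54 hairpins were below the median of their own quintile at PD45, then 39, 38 and 31 at the later times. PIK3R2 contributed 7 of 7 at PD45, PD50 and PD55, and 6 of 7 at PD60. PIK3R1 contributed 5 of 10 at PD45 and PD60. These are counts without a test.

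The non-targeting control hairpin had 4562, 1775, 669, 133 and 39 tags, changes of -1.38, -2.73, -5.40 and -6.54 from PD40. PI3 kinase hairpins lay on both sides of it, 28 of 54 having a lower change at PD45, then 30, 25 and 31. The median of all hairpins was -1.63, -3.46, -4.93 and -5.86, below the control at PD45 and PD50 and above it later. How many library hairpins lay below the control was not counted, so these counts do not set the family apart. At PD60 the PI3 kinase hairpins below the control were 18 of 32 catalytic and 13 of 22 regulatory hairpins. As there is 1 such control, the spread of a neutral hairpin is not measured.

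Hairpins against genes that act with PI3 kinase were also mostly lower, in shares near those of the library. Of the list of upstream and downstream genes, 7 are reported here, with 56 hairpins: AKT1, AKT2, FRAP1 (the older name of the kinase mTOR), RPS6KA1, RPS6KB1, RPS6KB2 and the transcription factor FOXO1, which AKT phosphorylates. At PD60 1 of 54 tested hairpins was higher (library 2.28%) and 50 were lower (library 95.3%), with a median of -5.99 (library -5.86). The median PD40 level was 1418 tags, below that of the PI3 kinase hairpins. Among these, FRAP1 had the highest gene mean, -3.77 (SD 3.78, 10 hairpins), and the S6 kinase gene RPS6KB2 the lowest, -6.15 (SD 1.27, 5 hairpins).

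The hairpin of that list that was higher, FRAP1 TRCN0000038678, had 813, 148, 46, 167 and 8977 tags, a ratio of 11.5 (10.7 to 12.4). It was below its start until PD55, unlike PIK3CA TRCN0000082626 and PIK3CB TRCN0000039979, which were above theirs at every later time. The 3 genes of the related protein kinases ATM, ATR and mTOR, whose kinase domain resembles that of PI3 kinase, had 28 hairpins. At PD60 2 were higher (7.14%, library 2.28%), FRAP1 TRCN0000038678 among them, and 24 lower (85.7%, library 95.3%), with a median of -6.15. ATM had the lowest mean, -6.78, and ATR TRCN0000039617 the other gain. The list of receptor tyrosine kinases held only RET, a receptor that can signal through PI3 kinase. Its hairpins were lower in 15 of 15 (library 95.3%), with a median of -7.60 and a mean of -6.62. They also started higher, with a median of 3470 tags at PD40 against 1019 in the library.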

How the data were processed

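Genomic DNA of IMR90 cells was sampled at 5 population doublings, 50 samples in all, grouped by the doubling in their titles. The deposited values are raw counts of tags for each hairpin, per the file headers, in 1 column for each doubling. How plates were combined is not given in the sources used here, and each column was taken as the authors' pooled value. The submitters' processing notes name Bowtie 1.0.1. Of 3455 hairpins in the labels' design text, the table lists 3443.

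CPM was each count over its column total. Without replicates no test was run and no p-value is given. TMM factors came from edgeR 4.0.16 in R 4.3.3. Everything else ran in Python 3.11.15 (scipy 1.17.1, pandas 2.3.3, numpy 2.4.6). The fold calls and intervals were tested on simulated data. Hairpins were placed in 5 quintiles of PD40 tags. Names were matched to RefSeq (GRCh38.p14).

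The members and lists were chosen with earlier results of these data known. All 7 PIK3 genes are named. Full values are given for hairpins over 2-fold higher at any time, the 2 highest and 2 lowest per role group and the most abundant per gene at PD40; of each list, the genes with the highest and lowest mean and any with a hairpin higher at PD60. Other hairpins were named after their values were seen. A planned list of inositol lipid enzymes had no member in the table, and 1 gene of the upstream and downstream list is not reported here. Alternatives covered scaling, pseudocount, count minimum, end point, quintiles and leaving out genes or hairpins.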

Additional observations from a re-analysis of the deposited data

How the results depend on the processing

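No paired analysis was possible because the table gives 1 pooled column for the 10 plates of a time. With TMM factors the median change of the 54 was -0.29, -0.55, -1.02 and -1.83 from PD45 to PD60, and 9, 10, 14 and 10 were higher and 17, 24, 27 and 33 lower. Scaled without the 50 hairpins most abundant at the later time, the medians were -1.10, -2.43, -3.94 and -5.24, with 5, 5, 4 and 4 higher. A pseudocount of 10 CPM gave medians of -2.63 at PD50, -3.87 at PD55 and -4.40 at PD60. Without the 50 hairpins most abundant at each time, the family's share of tags was 3.35%, 2.80%, 1.78%, 3.67% and 3.20% from PD40 to PD60. The members left out differed between times, and TRCN0000082626 was not among them at PD55.

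Leaving out 1 gene gave medians of -1.49 to -1.33 at PD45, -3.43 to -3.14 at PD50, -5.36 to -4.90 at PD55, then -7.04 to -6.66 at PD60. The counts higher were 1 to 3, 1 to 3, 0 to 1 and 1 to 2, the lowest of each without PIK3CA or, at PD60, also without PIK3CB. The counts lower were 26 to 31, 36 to 41, 39 to 45 and 39 to 45. Gene means with TMM factors ran from -2.59 for PIK3CG to -0.099 for PIK3CB. No median or gene mean changed sign under the alternatives run. Tags at PD60 were under 100 for 46 of 54 hairpins, which limits the precision of their folds.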

Other observations

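Hairpins of the PI3 kinase genes fall into blocks of catalogue numbers. This division, at a catalogue number of 20000, was made after the values were seen. The 12 with lower numbers, 8 against PIK3CB and 2 each against PIK3CA and PIK3R2, had a median of 10344.5 tags at PD40, against 1901 for the other 42. Elsewhere in the library the order was the other way round, with 689 tags for 1350 hairpins of low number and 1267.5 for 2038 of high number.

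All 12 were lower at PD60 (95.7% of the other hairpins of low number), with a median of -7.29 and none at 0 tags. Of the 42, 2 were higher and 38 lower (95.1% of the other hairpins of high number). Their median was -6.64, and 10 were at 0 tags. In the rest of the library at PD60 the hairpins of low number were higher in 2.55%, with a median of -5.59 and 55.7% at 0 tags, and those of high number in 2.07%, with a median of -6.01 and 37.1% at 0 tags. The 12 held 1.61% of all tags at PD40 and 0.0119% at PD60, and the 42 held 1.49% and 2.14%. The hairpins that kept or raised their level (PIK3CA TRCN0000082626 and TRCN0000039607, PIK3CB TRCN0000039979 and PIK3R1 TRCN0000033284) were all among the 42. The part of starting abundance or of the catalogue block in this was not tested.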
